A study of Drosophila melanogaster with 2 samples.

Results

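Oxidative phosphorylation (OXPHOS) subunit genes encode the protein parts of the respiratory complexes of the mitochondrion. The genes described here were the nuclear protein-coding genes whose symbols start with ND-, COX, UQCR- or ATPsyn, together with blw, RFeSP, Cyt-c1 and Cyt-c-p. The rule found 84 genes among the 13945 protein-coding genes of the 6 chromosome arms used. They comprise 40 genes of complex I, 12 of complex III with cytochrome c, 16 of complex IV and 16 of complex V. They were chosen by symbol, and no binding value entered the rule.

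The study mapped Sima, which in flies plays the part of HIF-1alpha, the oxygen-regulated subunit of hypoxia-inducible factor 1, by chromatin immunoprecipitation and sequencing (ChIP-seq). The material was whole embryos of Drosophila melanogaster, mixed in sex, from a transgenic line (sima-RB-GFP) in which GFP is fused to the C terminus of the sima RB isoform, collected 0 to 24 h into development. The antibody was directed against GFP, and 2 biological replicates formed 1 group with no second group or control sample analysed here. The labels give no oxygen treatment and no promoter for the transgene, and since the embryos were whole, the cells in which a gene was bound cannot be told apart.

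Complex I takes electrons from NADH and complex III passes them by way of cytochrome c to complex IV, which reduces oxygen. The proton gradient these complexes build drives complex V, the ATP synthase. HIF-1 is a pair of proteins of the bHLH-PAS family that binds a short DNA core and activates genes of the hypoxia response, and in mammals it is known to shift metabolism towards glycolysis and to exchange some subunits of complex IV. Several subunits in flies have a duplicate gene, and many such duplicates are known to be expressed mainly in the testis.

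A peak means a region that passed the authors' threshold on the irreproducible discovery rate (IDR, a measure of how well 2 replicates rank the same regions). The IDR list holds 1272 regions. The relaxed lists, 1 for each replicate and 1 for their pooled reads, hold 30000 regions each and by construction reach into background. A gene was counted with a peak or region when its summit (the base of highest signal) lay within 500 bp of any annotated start site of the gene. Signals are given by rank within a list and by ratio, which is the region's signal over that list's median. With 1 group there is no contrast to test, so every value is a description, and the counts of members are set beside the share of all protein-coding genes.

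The DNA at the peaks of 4 subunit genes is shown because it is what the immunoprecipitation recovered. Each line covers bases within 100 bp of the summit that lie in no annotated exon, read along the strand of the gene, from the Release 6 genome (dm6). Capitals mark a word of the fixed list: ACGTG or GCGTG (the hypoxia core) and TATAAA (the TATA word), sought on both strands. The stretch at ND-ASHI (chrX:6679277-6679477, minus strand) lies in an intron of the neighbouring Fum1. The stretch at COX5A (chr3R:11819421-11819547, plus strand) lies in an intron of the longest COX5A transcript. The stretch at ND-24 (chrX:17632180-17632252, plus strand) starts 28 bases downstream of the summit and is intronic. The stretch at ND-51 (chr2L:6062758-6062953, minus strand) is intergenic.
ND-ASHI: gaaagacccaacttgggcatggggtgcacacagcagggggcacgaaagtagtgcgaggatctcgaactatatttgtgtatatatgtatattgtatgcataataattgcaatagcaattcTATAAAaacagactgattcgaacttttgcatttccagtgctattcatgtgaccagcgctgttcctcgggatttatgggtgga
COX5A: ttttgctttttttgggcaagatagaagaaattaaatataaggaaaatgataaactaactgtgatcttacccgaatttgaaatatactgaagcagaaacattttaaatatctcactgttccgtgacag
ND-24: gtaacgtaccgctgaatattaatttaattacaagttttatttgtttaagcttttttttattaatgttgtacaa
ND-51: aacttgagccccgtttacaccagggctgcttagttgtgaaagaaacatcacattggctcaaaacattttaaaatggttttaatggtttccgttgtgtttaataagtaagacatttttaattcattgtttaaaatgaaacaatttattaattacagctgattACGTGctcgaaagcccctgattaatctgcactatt
The G+C content was 42.3% in the ND-ASHI stretch, 29.9% at COX5A, 21.9% at ND-24 and 33.2% at ND-51. The ACGTG at ND-51 lies more than 50 bp from the summit. The hypoxia core and the TATAAA that COX5A has within 50 bp of its summit fall outside the printed stretch.

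Sima peaks were found at 6 of the 84 OXPHOS subunit genes, which is 7.14% (95% Wilson interval 3.31% to 14.7%), against 6.22% of all protein-coding genes. The members' share is therefore near the background. The 6 genes were ND-ASHI, ND-MWFE, ND-24 and ND-51 of complex I, COX5A of complex IV and blw of complex V. By complex, 4 of 40 genes of complex I had a peak, 0 of 12 of complex III with cytochrome c, 1 of 16 of complex IV (6.25%) and 1 of 16 of complex V (6.25%). The interval for complex I was 3.96% to 23.1%, and that for complex III, where no gene had a peak, reached 24.2%. With these numbers of genes the intervals are wide and overlap, and differences among the complexes were not tested. The intervals cover counting error over genes, and since depth is unknown they include no sequencing error. The 73 genes of the mitochondrial ribosome (symbols mRpL and mRpS), another set of nuclear genes for a mitochondrial machine, had 7 peaks (9.59%, interval 4.72% to 18.5%).

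**Figure D1:**
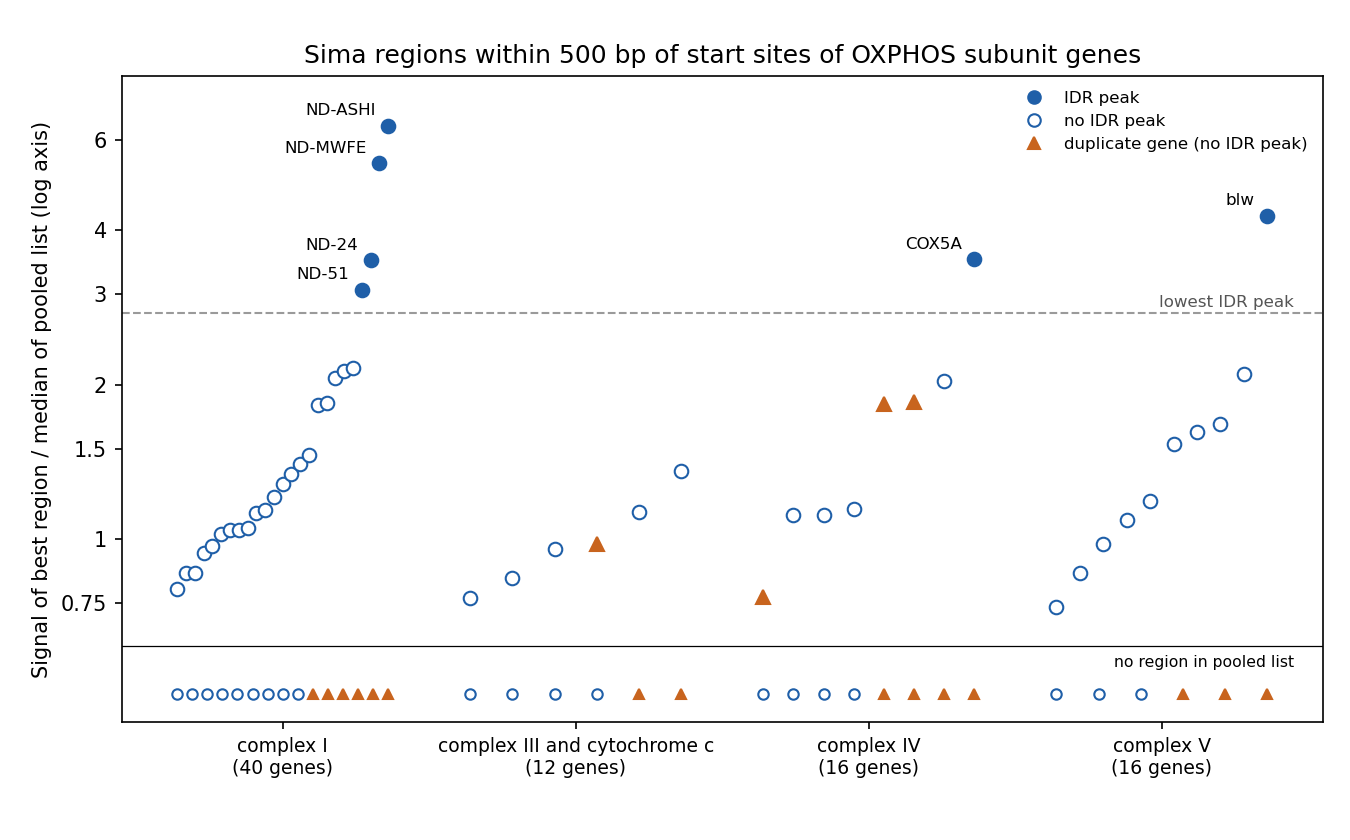
Signal of the best pooled region within 500 bp of a start site for each of the 84 OXPHOS subunit genes, over the median of the pooled list (log axis), by respiratory complex. Filled circles have an IDR peak, open circles do not, triangles are duplicate genes, and symbols in the strip at the bottom have no region in the pooled list. Complex III has no gene above a ratio of 1.36, and the 6 peaks lie between 3.06 and 6.39.

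ND-ASHI, the fly counterpart of the mammalian NDUFB8 subunit in the membrane arm of complex I, had the strongest peak of the family. Its pooled region (chrX:6679179-6679574) had rank 194 and a ratio of 6.39, with the summit 259 bp upstream of the nearest ND-ASHI start site. Replicate 1 gave a ratio of 4.52 and replicate 2 gave 7.08, which is 5.80 ± 1.81 (SD, n = 2). A start site of Fum1, which encodes fumarase of the citric acid cycle and runs the other way, lay at nearly the same distance, 263 bp from the summit. The summit lay upstream of both of these start sites and within an intron of the longer Fum1 transcript, and the peak cannot be assigned to either gene from its position.

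ND-MWFE, the counterpart of NDUFA1, which is needed to build the membrane arm, was next at rank 298 and a ratio of 5.40 (chr2R:13158301-13158696). Its ratio was 3.72 in replicate 1 and 6.15 in replicate 2 (4.94 ± 1.72, SD, n = 2). The summit lay 167 bp upstream of ND-MWFE but 54 bp from a start site of TppII, a large peptidase gene, so counting the nearest gene alone leaves ND-MWFE without a peak. ND-24 and ND-51 encode the neighbouring subunits at the tip of complex I where NADH is oxidised (NDUFV2 and NDUFV1 in mammals), and both had a peak. The region at ND-24 (chrX:17631954-17632349) had rank 791 and a ratio of 3.50, with ratios of 2.31 in replicate 1 and 3.56 in replicate 2 (SD 0.883, n = 2). Its summit was the one among the 6 that lay downstream, 63 bp into the 5′ UTR, and it was 105 bp from a start site of corolla, a gene of the synaptonemal complex.

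The region at ND-51 (chr2L:6062655-6063050) was the weakest of the 6, at rank 1038 and a ratio of 3.06. Its ratio was 1.81 in replicate 1, where it ranked 2703, and 3.53 in replicate 2, where it ranked 794 (2.67 ± 1.22, SD, n = 2). The summit lay 96 bp upstream of ND-51 and 136 bp from a start site of CG13994. ND-24 and ND-51 are 2 of the 7 conserved core subunits of complex I encoded in the nucleus. Among the other 5, ND-30 had its best pooled region at rank 7632, ND-49 at 21687 and ND-23 at 21769, while ND-75 and ND-20 had no pooled region. The peaks therefore did not extend over the core of the complex.

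COX5A encodes a subunit on the matrix side of cytochrome c oxidase. Its region (chr3R:11819318-11819713) had rank 780 and a ratio of 3.51, with 2.21 in replicate 1 and 3.74 in replicate 2 (2.97 ± 1.08, SD, n = 2). The summit lay 83 bp upstream of the nearest COX5A start site and 96 bp from a start site of glo, which encodes an RNA-binding protein. The blw gene encodes the alpha subunit of the ATP synthase head, which alternates with the catalytic beta subunit. Its region (chr2R:22798729-22799124) had rank 516 and a ratio of 4.27, with 2.98 in replicate 1 and 4.72 in replicate 2 (3.85 ± 1.23, SD, n = 2). The blw summit was 172 bp upstream of its start site, and blw was the one gene of the 6 with no start site of another protein-coding gene within 500 bp. Of the other head subunits, ATPsynbeta had its best pooled region at rank 4747 and ATPsyndelta at 15826. ATPsyngamma had no pooled region, though it had one at rank 13679 in replicate 1.

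In each of the 6 genes replicate 2 gave the higher ratio, with a median of 1.62 times replicate 1. The same direction was seen at 480 of the 611 peaks near protein-coding start sites that were matched in both replicates, with a median of 1.44, so it was not particular to these genes. Among the 14 members without a peak whose pooled region was matched in both replicates, replicate 2 was higher in 9 and the median was 1.13. When the 1272 strongest regions of replicate 2 alone were taken, 7 members had one (8.33%, against 6.54% of all genes). The 1272 strongest of replicate 1 alone gave 3 members (3.57%, against 5.51%), which were ND-ASHI, ND-MWFE and blw. ND-24, ND-51 and COX5A were among the 1272 strongest regions in replicate 2 only. In replicate 1 they fell outside that cut, ND-24 at rank 1340, COX5A at 1518 and ND-51 at 2703.

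**Figure D2:**
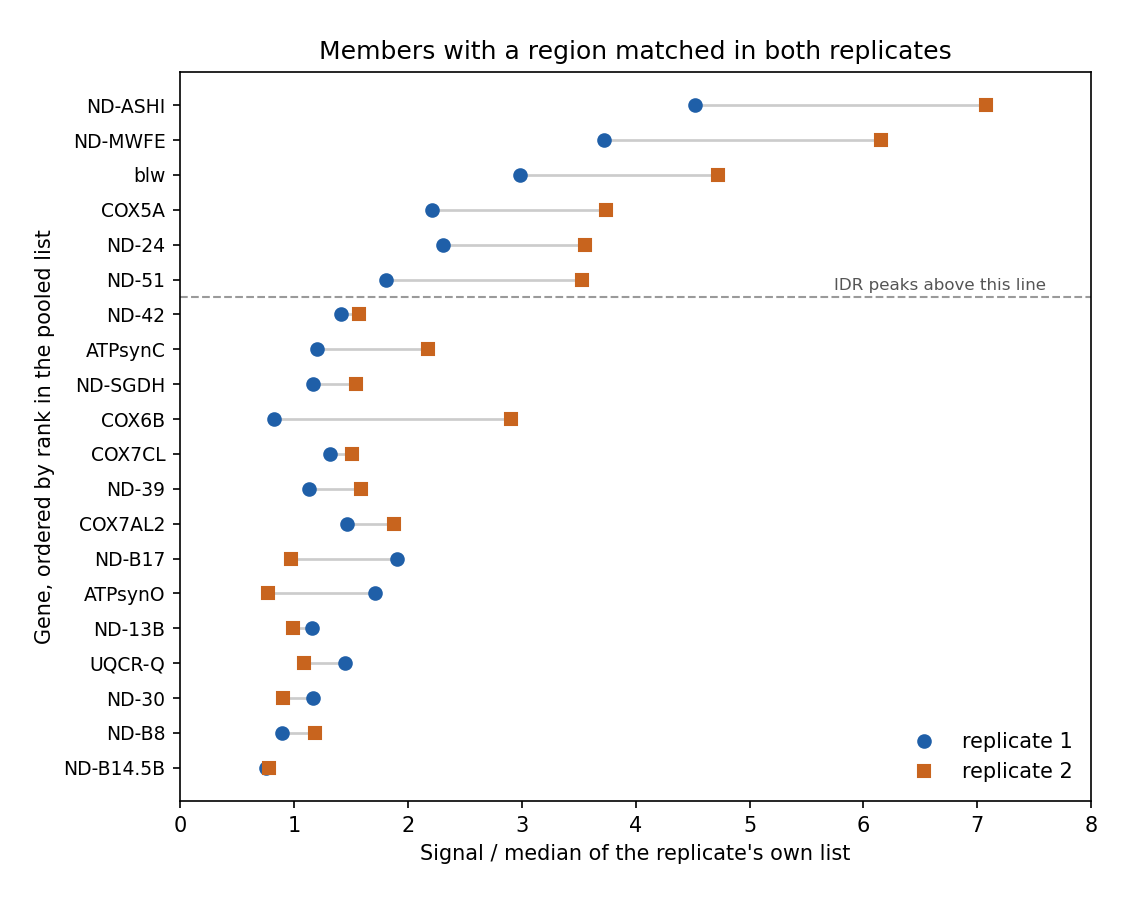
Ratio of signal to the median of the replicate's own list in replicate 1 (circles) and replicate 2 (squares) for the 20 OXPHOS subunit genes whose pooled region was matched within 100 bp in both lists, ordered by rank in the pooled list. The 6 genes with a peak lie above the dashed line and have the squares to the right, while COX6B shows the widest gap among the others, 0.821 in replicate 1 and 2.91 in replicate 2.

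Below the peak list, 49 members had a region anywhere in the pooled list (58.3%, interval 47.7% to 68.3%, against 48.0% of all genes), and 18 had one of rank 5000 or better (21.4%, against 18.4%). Among genes with a region, the median best rank was 9480 for members and 7566 for all genes, so the members with a region were not placed higher in the list. Replicate 1 had a region at 50 members (59.5%, against 48.2%) and replicate 2 at 38 (45.2%, against 43.7%). Both replicates had one at 29 members (34.5%, against 31.7%). With the summits required to lie within 100 bp of each other, 19 remained (22.6%, against 19.2%).

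The next genes of complex I were ND-42 at rank 2097 and ND-13A at 2136. ND-42 (NDUFA10 in mammals, an accessory subunit) had a ratio of 2.15, and its summit lay 190 bp upstream of ND-42 and 39 bp from a start site of Cchl, the lyase that attaches heme to cytochrome c. ND-13A (NDUFS6 in mammals) had a ratio of 2.13 with its summit 286 bp downstream of its nearest start site. The best region at ND-13A had a ratio of 2.25 in replicate 1, where its summit was over 100 bp from the pooled one, and 1.27 in replicate 2. At ND-42 the best region ranked 5801 in replicate 1 and 1365 in replicate 2, where its summit was over 100 bp from the pooled one. The replicate 2 region matched to the pooled ND-42 summit ranked 4016, with a ratio of 1.57. ND-SGDH at rank 2298, ND-39 at 2981 and ND-B17 at 3043, named after their values were seen, complete the members of complex I at rank 5000 or better outside the peak list. ND-B17 ranked 2297 in replicate 1 and 16036 in replicate 2, so its pooled rank rests on 1 library. ND-18 and ND-19, accessory subunits known as NDUFS4 and NDUFA8 in mammals, had no region in any of the lists, and 15 of the 40 genes of complex I had none in the pooled list (37.5%, against 52.0% of all genes).

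Complex III with cytochrome c had no region of rank 5000 or better. Its best pooled regions were at UQCR-Q, rank 6507 with a ratio of 1.36, and at UQCR-14, rank 10857 with a ratio of 1.13. Both encode small accessory subunits, and neither had a region in replicate 2 within 500 bp of a start site. For UQCR-Q, replicate 2 had a region matched to the pooled summit, at rank 11985, but its own summit lay beyond that distance. Cyt-c1, which carries the heme that passes electrons to cytochrome c, had its best region at rank 27608, and RFeSP, the Rieske iron-sulfur protein, at 16867. Cyt-c-p, the main cytochrome c gene, had no pooled region within 500 bp, although it ranked 5642 in replicate 1 and 27672 in replicate 2, and a peak lay between 500 and 1000 bp from its start site. UQCR-11 had no pooled region either. Only 1 of the 12 genes of this group had a region in both replicates, against 31.7% of all genes.

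In complex IV the best gene without a peak was COX6B, which encodes a subunit facing the intermembrane space. Its pooled region had rank 2378 and a ratio of 2.03. Replicate 1 placed it at rank 23503 and replicate 2 at rank 1127, so its place was set by replicate 2. The COX6B summit also lay 48 bp from start sites of CG33932, Rpp20 and CG18809. COX7CL, a duplicate of COX7C, followed at rank 2938 with ratios of 1.31 in replicate 1 and 1.51 in replicate 2. COX4, whose mammalian isoforms are known to be exchanged by HIF-1 in hypoxia, had no region in any list, nor did its duplicate COX4L.

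In complex V, ATPsynC, which encodes the ring subunit that rotates in the membrane, had rank 2203 and a ratio of 2.10 with a summit 20 bp into its 5′ UTR. Its best region ranked 2675 in replicate 1 and 1854 in replicate 2. The replicate 1 region matched to the pooled summit was weaker than that best one, with a ratio of 1.20, and the matched region of replicate 2 had 2.18. ATPsynE, the counterpart of subunit e at which the enzyme pairs into dimers, had rank 3730 with a summit 436 bp upstream. That summit was nearer to a start site of Afti, at 178 bp. Replicate 1 had a region matched to it, at rank 3282. The best region of replicate 2, at rank 1665, was not matched to it. ATPsynO, the stalk protein known as OSCP, had rank 4124 and was named after its values were seen. It ranked 3167 in replicate 1 and 27754 in replicate 2, so its pooled rank rests on 1 library. ATPsynB, part of the stalk that holds the head still, had no pooled region, nor did ATPsynbetaL, the duplicate of ATPsynbeta. ATPsynB appeared late in the replicate lists, at rank 24615 in replicate 1 and 28982 in replicate 2.

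**Figure D3:**
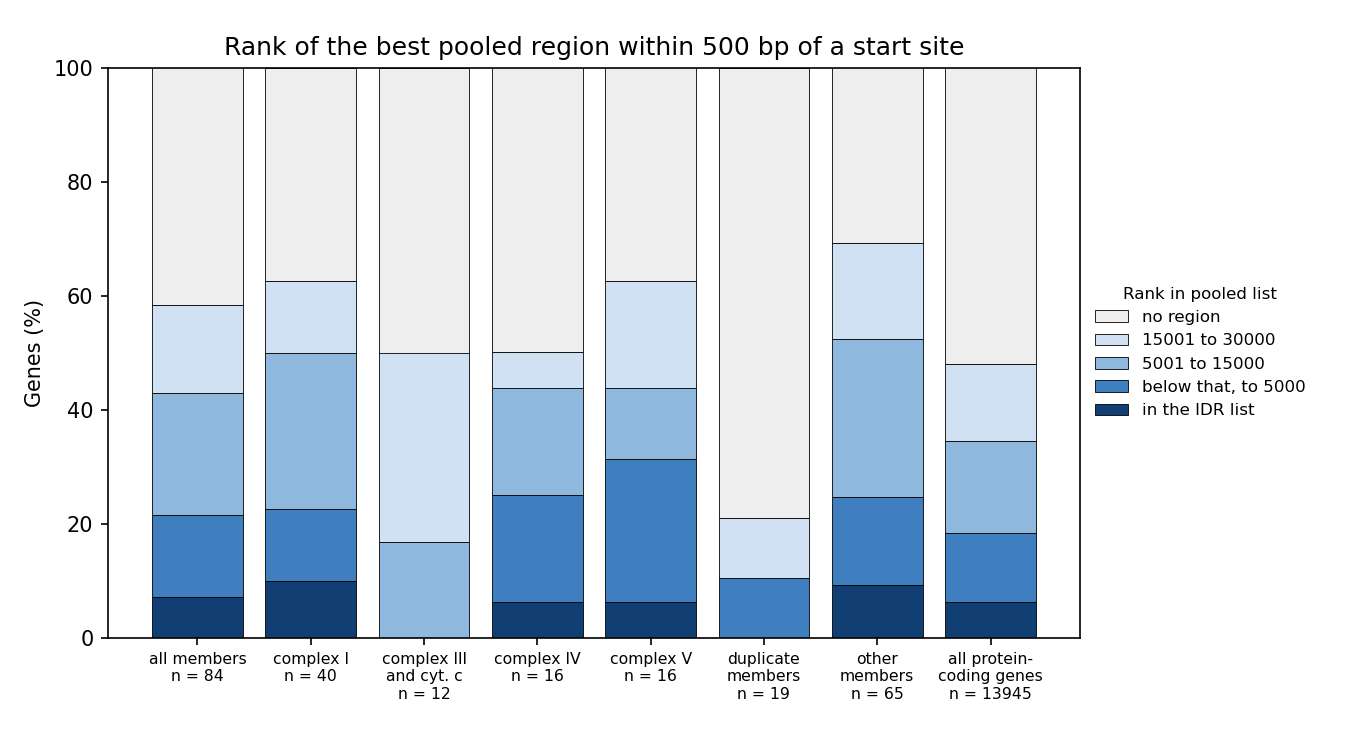
Percentage of genes by the rank of their best pooled region within 500 bp of a start site, for all OXPHOS subunit genes, each complex, duplicate and other members, and all protein-coding genes. The bar for duplicates is mostly without a region, and that of complex III starts only below rank 5000, while the bar of all members follows that of all protein-coding genes within the peak list.

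The position of the peaks relative to the start sites was like that of other genes. Of the 6 member peaks 5 lay upstream, with a median of -131.5 bp, against 85.9% upstream and a median of -139 bp for all genes with a peak. Among the 49 members with a pooled region 30 summits lay upstream (61.2%, against 64.5% of all genes with one), with a median of -48 bp, against -81 bp. Those 49 summits fell in intergenic sequence in 16 genes, in introns in 13, in coding sequence in 10, in 5′ UTRs in 9 and in a 3′ UTR in 1.

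**Figure D4:**
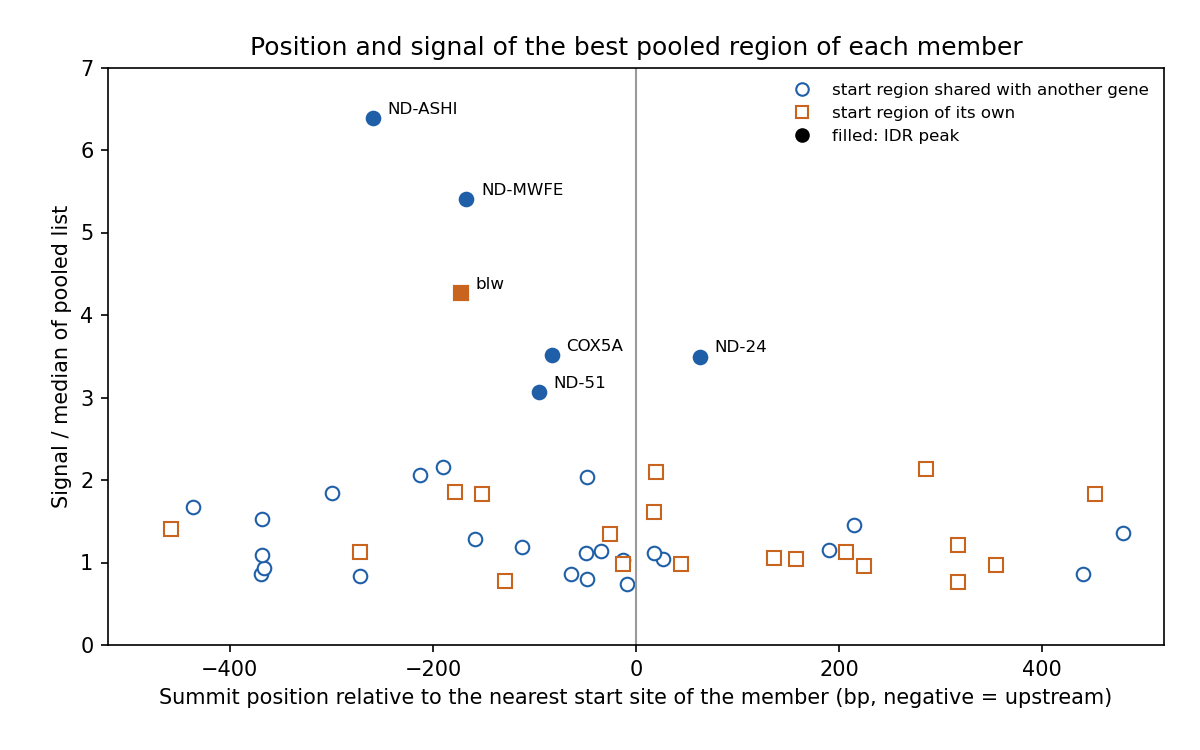
Distance of the best pooled summit from the nearest start site of the member (bp, negative upstream) and its signal over the median of the pooled list, for the 49 members with a region. Filled symbols have an IDR peak, circles share a start region with another gene and squares do not. The peaks lie between 259 bp upstream and 63 bp downstream, and the weaker regions are spread over the whole window.

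A feature the rule did not use was how closely other genes lie. A start region was called shared when another protein-coding gene began no more than 500 bp away from one of the gene's own start sites. Of the members 40 of 84 shared their start region (47.6%), against 30.9% of all protein-coding genes. Some neighbours are themselves mitochondrial: ND-ASHI pairs with Fum1, ND-42 with Cchl, ND-B16.6 with kdn (citrate synthase) and ATPsynD with mRpL55, named after their positions were seen. Others, such as corolla, TppII and glo, are not. The share of mitochondrial neighbours was counted neither for members nor for all genes. A peak in a shared region counts for every gene there. Among members with a shared start region 5 of 40 had a peak (12.5%, against 11.8% of all genes with a shared region), and 29 of 40 had a pooled region (72.5%, against 67.5%). Among those with an unshared start region 1 of 44 had a peak (2.27%, against 3.72%), and 20 of 44 had a pooled region (45.5%, against 39.3%). Within each class of start region the members' share of peaks was thus close to that of other genes.

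**Figure D5:**
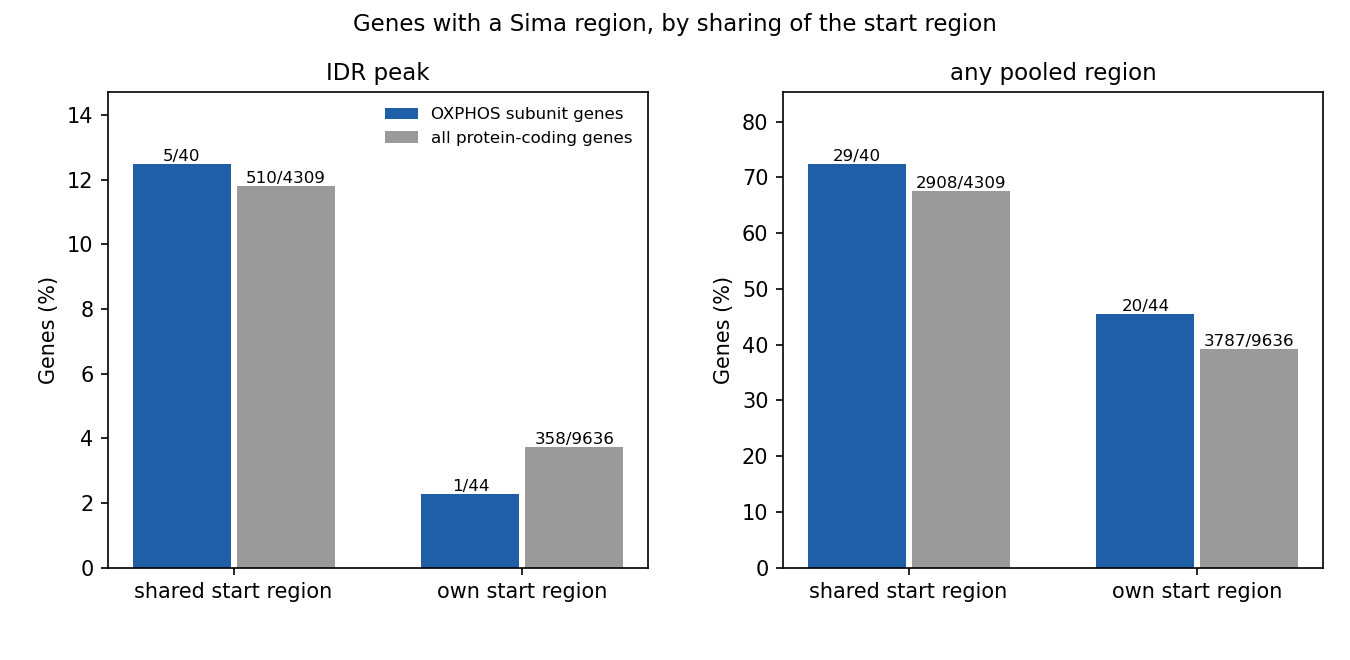
Percentage of OXPHOS subunit genes and of all protein-coding genes with a peak (left) and with any pooled region (right), for genes that share a start region with another protein-coding gene and genes that do not; the counts stand above the bars. Of the 6 member genes with a peak, 5 fall in the shared class.

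A pooled region was less common at 19 duplicate genes than at the other 65 members. Counted as duplicates were members whose symbol is that of another member followed by L, with or without a digit, and COX6AL and COX6AL2, whose original is levy. COX6CL and ATPsynepsilonL, whose symbols also end in L but match no other member, are among the 65, and neither had a peak or a pooled region. None of the 19 had a peak, which allows a share of up to 16.8%, against 6 of the 65 others (9.23%, interval 4.30% to 18.7%). A pooled region was found at 4 of 19 duplicates (21.1%, interval 8.51% to 43.3%) and at 45 of 65 other members (69.2%, interval 57.2% to 79.1%), with 48.0% of all genes between them. Neither replicate had a region at 14 of 19 duplicates (73.7%) and at 11 of 65 other members (16.9%), against 39.7% of all genes. Only 2 of the 19 duplicates shared a start region (10.5%), against 38 of the 65 others (58.5%). Among genes with an unshared start region, 4 of 17 duplicates (23.5%) and 16 of 27 other members (59.3%) had a pooled region, against 39.3% of all such genes.

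Set beside their originals, the duplicates formed 19 pairs. In 1 pair the duplicate alone had a pooled region (UQCR-6.4L, at rank 15825), in 12 the original alone, in 3 both and in 3 neither. The widest gap was at the tip of complex I, where ND-24L, ND-51L1 and ND-51L2 had no region in the pooled list or in either replicate and their originals ND-24 and ND-51 had peaks. In the pooled list COX7AL2, at rank 3008, and COX7CL, at 2938, were placed ahead of their originals COX7A, at 11192, and COX7C, at 11185. For COX7CL this turned in replicate 1, where it ranked 7121 and COX7C ranked 3706. The COX7AL2 summit lay in intergenic sequence beyond the annotated end of the gene, 452 bp from its nearest start site and 125 bp from a start site of CG10874. Some originals occur in several pairs, so the 19 pairs are not independent. Genes outside the rule are not in these pairs, and they went both ways. The testis cytochrome c gene Cyt-c-d had a peak, at rank 416, while Cyt-c-p had no pooled region. Cyt-c1L and SdhAL had no pooled region, while Cyt-c1 and SdhA had one. SdhB and SdhBL both had one.

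Genes of the same pathway outside the rule were counted beside the share of all genes, which was 6.22% for a peak and 48.0% for a pooled region. Complex II, the succinate dehydrogenase that feeds electrons in beside complex I, had a peak at 0 of 6 genes and a pooled region at 5, the best at SdhC with rank 4832. Of 6 subunit genes with other symbols 1 had a peak, the testis cytochrome c gene Cyt-c-d (chr2L:16716134-16716529). Its region had rank 416, with a ratio of 4.60 in replicate 1 and 3.27 in replicate 2. The summit lay 371 bp downstream of the nearest Cyt-c-d start site and 137 bp upstream of CG31808. The next, levy, which encodes subunit 6A of complex IV, missed the peak list at rank 1319, with rank 8707 in replicate 1 and 660 in replicate 2.

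Of 12 assembly factor genes found by symbol 1 had a peak, of higher rank than that of any member. CIA30, the counterpart of NDUFAF1, which helps to assemble the membrane arm of complex I, had rank 40 (chr3R:29736753-29736977). Its ratio was 8.65 in replicate 1, at rank 62, and 13.3 in replicate 2, at rank 43, taking the best region near its start site in each, so both libraries had a region near the top of their lists. The summit lay 118 bp upstream of CIA30 and 102 bp upstream of CG7601. No peak was found at the 6 carrier genes, where the ADP/ATP carriers sesB and Ant2 shared a region of rank 2075. No peak was found at the 10 regulator genes of mitochondrial biogenesis, of which PolrMT, the mitochondrial RNA polymerase, had rank 1716 and ERR, a nuclear receptor, rank 1893. PolrMT ranked 1898 in replicate 1 and 1802 in replicate 2, while ERR ranked 15730 in replicate 1 and 1140 in replicate 2, so that the place of ERR rests on replicate 2. NdufA3 and NdufV3, added after the lists had been seen, had ranks of 19701 and 4279.

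Short DNA words were counted in the promoters, from 250 bp before to 50 bp after the most upstream start site, on both strands. The word GGTCACAC, part of the core promoter element known in flies as motif 1, was in 17 of 84 member promoters (20.2%, interval 13.0% to 30.0%), against 7.70% of all promoters. It was in 16 of the 65 members that are not duplicates (24.6%) and in 1 of the 19 duplicates (5.26%). The hypoxia core was in 38.1% of member promoters, against 42.6%, and the TATA word in 52.4%, against 45.8%. TATCGATA, the DNA replication-related element, was in 10.7%, against 9.36%, with none among the duplicates. GAGAG was in 22.6%, against 29.7%. CACGTG, an E-box that holds the hypoxia core, was in 4.76%, against 4.20%, and TGCGCA, part of the site of nuclear respiratory factor 1, in 7.14%, against 6.96%. CCGGAAG, an ETS word, was in none, against 1.09%. TTACATAA, TTACGTAA, TTATATAA or TTATGTAA, the core of the nuclear respiratory gene element, counted together, was in 5.95%, against 5.18%.

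Members with and without motif 1 had pooled regions at similar shares. Of the 17 members with the word 2 had a peak (11.8%, against 6.80% of all genes with the word), ND-MWFE and COX5A, and 10 had a pooled region (58.8%, against 66.2%). Of the 67 members without it 4 had a peak (5.97%) and 39 a pooled region (58.2%). Within 50 bp of the summits, none of the 6 member peaks held motif 1, against 0.919% of the 653 peaks near protein-coding starts. The hypoxia core lay within 50 bp of 2 of the 6 member summits, COX5A and blw (33.3%, interval 9.68% to 70.0%, against 15.6%). TATAAA lay there in 3, ND-ASHI, ND-MWFE and COX5A (interval 18.8% to 81.2%, against 19.0%). Over the 49 member pooled regions the hypoxia core lay within 50 bp of 24.5% of summits (interval 14.6% to 38.1%). The share was 20.6% for all pooled regions near protein-coding starts, which is above the 15.6% of the peaks there. Within 100 bp the core was at 36.7% of the member pooled regions and 36.3% of all such regions.

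The G+C content around the member peaks depended on the window. The G+C content within 50 bp of the summit had a median of 26.7% over the 6 member peaks, with a range of 21.8% to 34.7%, against a median of 32.7% for all peaks near protein-coding starts. Within 100 bp the medians were 33.8% for the member peaks and 35.8% for all such peaks, so the gap was smaller in the wider window. Over the 49 member pooled regions the median was 39.6%, against 40.6%. Promoters of members had a median G+C content of 34.2%, against 38.0% for all genes. What part base composition had in the word counts was not tested.

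The result held near the background whichever way peaks were assigned to genes. Within 250 bp 5 members had a peak (5.95%, against 4.85%), and within 1000 bp 8 (9.52%, against 7.44%), the added genes being Cyt-c-p and ATPsynE. The stronger peaks, those above the median signal of the IDR list, gave 3 members (3.57%, against 3.27%), again ND-ASHI, ND-MWFE and blw. Using only the most upstream start site gave 6 (7.14%, against 5.26%), and counting only the nearest gene of each peak gave 5 (5.95%, against 4.61%).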

How the data were processed

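Regions from ChIP-seq of 2 biological replicates of 1 group of embryos were used, with DNA sheared by sonication to 200 to 800 bp, per the labels. The authors deposited region lists on dm6 and dm3, of which dm6 was used. The signal of a region is the deposited value of the peak caller. The authors also deposited −log10 q values, which entered no comparison. Relaxed lists were called against 1 control file, per the accompanying text files. For the caller, its version and the IDR threshold, and for the read numbers, the answer is not given in the sources used here. Depth per sample is thus unknown, and signals were compared only by rank or by ratio to the list's own median.

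Gene models came from Ensembl release 115 (BDGP6.54) and DNA from the Release 6 genome, in which the annotated start codons of all 84 members read ATG. Counts were made with Python 3.11.15, pandas 2.3.3 and numpy 2.4.6, intervals (95% Wilson) with scipy 1.17.1 and plots with matplotlib 3.10.9. The assignment of summits to start sites was tested on simulated data. A pooled region was matched to the nearest replicate summit within 100 bp. The members, the gene lists and the words were chosen with earlier results of these data known. Named genes are members with a peak, in each complex the 2 best without one and the first 2 by alphabet with no pooled region, and genes of the other lists with a peak. Cox15 and Foxred1 were not matched by symbol. DNA near ND-MWFE and blw is not shown.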

Additional observations from a re-analysis of the deposited data

Results flagged for a closer look

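The mitochondrial genome encodes the OXPHOS subunits that the nucleus does not, and its genes were not among those compared above. Replicate 1 had 14 regions on it, at ranks 1 to 33, with ratios of 11.4 to 121 to the median of its list. Replicate 2 and the pooled list had 0. Summits fell in 7 of the 13 mitochondrial protein genes, CoI, CoII, CoIII, Cyt-b, ND1, ND4 and ND5. The 14 regions drew attention because they appear in 1 replicate only, on a chromosome whose genes no comparison used. They are among the 30000 ranked regions of replicate 1. The replicate 1 ranks given above, and the strongest regions of replicate 1 taken alone, therefore count them. Results with the 14 regions left out were not computed. No control sample was analysed here, and the cause was not tested.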

How the results depend on the processing

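Of 40 alternatives to the counts of all members and of the 4 complexes, 28 stayed within 1.5 times the reported count. The 28 include settings that could not move a count: complex III started at 0, and a narrower setting can then return only 0. The stronger peaks, above the median signal of the IDR list, gave 3 genes in all, 2 in complex I and 0 in complex IV. Within 1000 bp complex III had 1 and complex V 2. Leaving out 1 replicate gave 3 (replicate 1 alone) to 7 (replicate 2 alone) in all, 2 to 4 in complex I, 0 to 2 in complex IV, 0 in both cases in complex III and 1 in both cases in complex V. Genes with an unshared start region, a choice made after seeing the data, gave 1 in all, 0 in complex I and 0 in complex IV. Duplicates had no peak under any of these, of which only the 1000 bp window and the lists of 1 replicate could have given one. Of 18 word shares recomputed in wider windows, 15 stayed within the interval of the first, and the other 3, the hypoxia core, GAGAG and TATAAA in promoters, were higher in the longer window for members as for all genes. The cause of the differences between replicates was not tested.

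No paired analysis was possible because there was 1 group. Without read counts, a gene with no region cannot be told from one below detection, and the relaxed lists hold 30000 regions each whatever the depth. A peak in a shared start region cannot be assigned to 1 of its genes. Whole embryos of 0 to 24 h mix cells and stages.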
